A study of Mus musculus with 10 samples.

Results

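The 10 medial habenula libraries were compared by how much glial RNA they carried: the 4 libraries of replicates 1 and 5, which held little of it, and the 6 libraries of replicates 2, 3 and 4, which held more. The replicate numbers came from the sample titles, and each set contains both sides of the brain, with 2 libraries per side in the first set and 3 per side in the second. The sets were chosen by the measured level of glial transcripts, so the difference between them is given as a description, without a test. A pair of questions that did not enter the choice was tested: whether the difference between the sets was itself different on the left and right sides, and which transcripts followed the glial level among the 6 libraries of replicates 2 to 4.

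All 10 libraries came from adult Chat-EGFP/Rpl10a mice of the bacterial artificial chromosome line DW167, which carry an EGFP-tagged ribosomal protein under control of Chat, the gene for choline acetyltransferase. The left and right medial habenula were dissected apart, tagged polysomes were captured with antibodies against EGFP, and the bound RNA was sequenced (translating ribosome affinity purification, TRAP). Every library is a pull-down from the transgenic line. Pull-downs from mice without the tag and unpurified input were not analysed here, so enrichment over tissue was not measured. The labels do not say whether the libraries came from separate animals, so the tests measure only the spread between these libraries, which may be technical.

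The medial habenula is a small nucleus of the epithalamus with cholinergic neurons that co-release glutamate in its ventral part and tachykinin neurons in its dorsal part. It projects to the interpeduncular nucleus and is known for a dense set of nicotinic acetylcholine receptors and for presynaptic GABA-B receptors. In a pull-down of tagged ribosomes, RNA of untagged neighbours such as astrocytes, oligodendrocytes, thalamic neurons and lateral habenular neurons is background, because it is carried along without the tag.

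The 10 libraries held 42488448 to 66016203 reads in genes for replicates 2 to 4 and 55425795 to 67942836 for replicates 1 and 5. Levels are given as normalised CPM, which is read counts scaled to the size and composition of each library. The glial score, the mean log2 CPM of 62 markers of astrocytes, oligodendrocytes, microglia and vascular cells, was -0.41 to -0.08 in replicates 1 and 5 and 1.75 to 3.35 in replicates 2 to 4. The library nearest to the gap was right replicate 1 in the first set and right replicate 2 in the second. Reads outside annotated genes were 13.6% to 14.96% in replicates 1 and 5 and 15.1% to 18.9% in replicates 2 to 4. Genes at 1 CPM or more numbered 12672 to 12705 in the first set and 13079 to 13642 in the second. The sets were sequenced on different lanes: replicate 1 on lanes 7 and 3, replicate 5 on lane 2, and replicates 2, 3 and 4 on lanes 4, 5 and 1, so lane and library set cannot be told apart.

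Replicates 1 and 5 of a side were more alike than any other pair of libraries. Over genes with 100 to 500 reads in a pair, the chi-square statistic per gene, which is near 1 where libraries differ by counting noise alone, was 1.32 for right replicates 1 and 5 and 2.16 for left replicates 1 and 5. It was 4.38 to 5.78 between sides within that set. Among replicates 2 to 4 it was 6.72 to 27.4 on the same side and 5.80 to 23.6 between sides, and it was 20.5 to 57.1 across the sets. The labels do not say whether replicates 1 and 5 of a side share RNA. If they do, the first set holds 2 independent samples in place of 4.

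Of 17649 genes tested, 2770 (15.7%) were at least 2-fold higher in replicates 2 to 4 with no overlap between the 2 sets of libraries, and 726 (4.11%) were at least 2-fold higher in replicates 1 and 5. Without the fold limit, 23.8% of genes were higher in all 6 libraries and 22.9% were higher in all 4. At 4-fold the counts were 1920 and 26, so the larger differences lay almost entirely on the side of replicates 2 to 4. A gene could pass the count filter through either set alone, and most of the 2770 genes averaged less than 10 CPM. Among 8964 genes averaging 10 CPM or more over the 10 libraries, the 2-fold counts were closer, at 688 and 416. The median log2 difference over all genes, replicates 2 to 4 minus replicates 1 and 5, was 0.03. When libraries were scaled to their summed medial habenula transcripts in place of their overall composition, that median was 0.75. At 2-fold without overlap, 5381 of 17649 genes were then higher in replicates 2 to 4 and 54 in replicates 1 and 5. Small negative differences below therefore hold relative to the rest of each library. They turn positive under the habenular scaling where this is said, and transcripts with differences near 0 become higher in replicates 2 to 4. The medial habenula transcripts make up the sum used for that scaling, so their own differences under it are held near 0 by construction. Shares of all genes without the fold limit were not computed under it.

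Of the 6 marker genes, the 3 of the medial habenula were lower in replicates 2 to 4 and the 3 of glia and thalamus were higher. Gpr151, an orphan receptor of habenular axons, was at 577, 554, 552 and 546 CPM in left replicate 1, left replicate 5, right replicate 1 and right replicate 5, the order used throughout. In replicates 2 to 4 its lowest, median and highest levels were 203, 265 and 382 CPM. The sets did not overlap, and Gpr151 was 1.97-fold lower in replicates 2 to 4. Tac2 (chr10:127724478-127731768 in mm10, plus strand), the precursor of neurokinin B, was at 991, 1016, 1120.1 and 1106 CPM in the 4 libraries and at 361, 456 and 875 CPM in the 6. Chat (chr14:32408203-32465989, minus strand), whose regulatory sequence drives the tag, was at 162, 189, 195 and 198 CPM and at 83.4, 92.9 and 121 CPM. Both were lower in all 6 libraries of replicates 2 to 4, Tac2 by 1.96-fold and Chat by 1.91-fold.

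**Figure D1:**
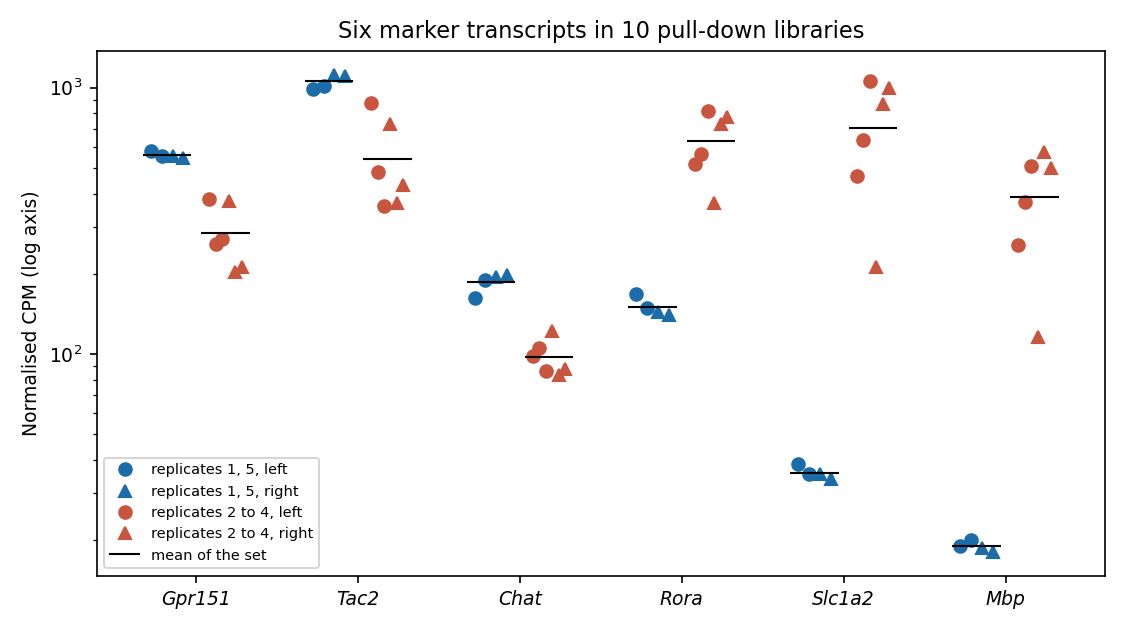
Normalised CPM (log axis) of 6 marker transcripts in each of the 10 libraries; circles are left and triangles right, blue is replicates 1 and 5, red is replicates 2 to 4, and lines are set means. Gpr151, Tac2 and Chat lie lower and Rora, Slc1a2 and Mbp higher in all 6 red libraries, and the lowest red Slc1a2 point is right replicate 2.

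The glial and thalamic markers differed by more, in the opposite direction. Slc1a2 (chr2:102658659-102790784, plus strand), the main glutamate transporter of astrocytes, was at 38.5, 35.3, 35.4 and 33.8 CPM in replicates 1 and 5 and at 213, 754 and 1064 CPM in replicates 2 to 4, a 19.8-fold difference. Mbp, the myelin basic protein of oligodendrocytes, was at 18.9, 19.9, 18.7 and 18.01 CPM against 116, 436 and 571 CPM, 20.5-fold higher. Rora (chr9:68653786-69388246, plus strand), a nuclear receptor strongly expressed in thalamic neurons, was at 168, 149, 144 and 139 CPM against 367, 648 and 816 CPM, 4.196-fold higher. Right replicate 2 was the lowest of the 6 libraries for all 3 genes and still lay above every library of replicates 1 and 5. In bulk libraries such as these, fewer cells of a type and less RNA per cell cannot be told apart. Exons of Slc1a2 and Rora overlap an opposite-strand gene (Gm13872 and Gm15511), and no source used here gives the strand setting of the read counting, so a share of their reads may belong to those genes.

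Medial habenula transcripts were lower together, by an amount smaller than the gain of glial ones. Of 17 measured, 16 were lower in all 6 libraries of replicates 2 to 4, beside 22.9% of all genes. None was higher, and the median log2 difference was -0.80. Their summed level was 12267 to 12668 CPM in replicates 1 and 5 and 5710.1 to 10060 CPM in replicates 2 to 4. Only Gng8, a G protein gamma subunit named after its value was seen, passed 2-fold with a log2 difference of -1.16. Over all genes, 4.11% were at least 2-fold lower without overlap. Without right replicate 2, 7 of the 17 passed 2-fold, and with replicates 1 and 5 of a side summed, 6 did. Slc18a3, the vesicular acetylcholine transporter, was the 1 transcript whose sets met: 476, 591, 564 and 586 CPM against 194, 289 and 476 CPM. Scaled to the habenular sum, which is the sum of these same transcripts, the list's median was -0.12, held near 0 by construction. Glial, thalamic and lateral habenular markers were higher in the same 6 libraries, and their part in these lower levels was not tested.

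Other abundant habenular transcripts were lower by less than Gpr151 and Tac2. Nwd2, an abundant habenular transcript, was at 3067, 2863, 2793 and 2743 CPM in replicates 1 and 5 and at 1646, 1975 and 2539 CPM in replicates 2 to 4. Lrrc55, an auxiliary subunit of large-conductance potassium channels, was at 2221, 2322, 2276 and 2436 CPM against 948, 1273 and 1807 CPM. Both were lower without overlap, by 1.42-fold and 1.74-fold, and the difference of Nwd2 was positive (0.19 on the log2 scale) under the habenular scaling. Nwd2 and Lrrc55 are part of the habenular sum, and with that sum fixed some parts must be higher where others are lower. Opposite-strand genes overlap exons of both, so part of their reads is uncertain. Kctd8, a subunit that modulates GABA-B receptor signalling, was at 233, 255, 239 and 245 CPM against 110.2, 132 and 186 CPM, 1.75-fold lower.

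Nicotinic receptor genes held members on both sides. Of 10 measured subunits, 4 were lower and 2 higher in all 6 libraries, beside 22.9% and 23.8% of all genes. The median log2 difference was -0.16, and 0.55 under the habenular scaling beside 0.75 over all genes. Chrna3, a pore subunit of habenular receptors, was at 1208, 1172, 1254 and 1270.3 CPM against 610.4, 912 and 1014 CPM, 1.43-fold lower. Its partner Chrnb4 was at 1147, 1153, 1261 and 1238 CPM against 614, 819.5 and 1135 CPM, 1.41-fold lower. Both turned positive under the habenular scaling, at 0.18 on the log2 scale. Chrna3 and Chrnb4 are part of the habenular sum, so these values are not independent of the scaling. The subunit that was higher by the most was Chrna7, named after its value was seen, with a log2 difference of 1.13. Counted per kilobase of exon, Chrnb4 made up 47.6% to 49.4% of nicotinic transcripts in replicates 1 and 5 and 43.1% to 50.5% in replicates 2 to 4, and Chrna3 made up 34.7% to 35.5% and 30.9% to 36.8%, so both shares overlapped.

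Other genes of acetylcholine handling and habenular identity were mixed. Of 6 acetylcholine genes, 2 were lower and 1 higher without overlap (median -0.43, or 0.26 under the habenular scaling). Of 12 habenular transcription factors, 6 were lower and 2 higher (median -0.45, or 0.26 under that scaling). Over all genes 22.9% were lower and 23.8% higher without overlap, and the median was 0.03, or 0.75 under that scaling. Nr4a2, an orphan nuclear receptor, was at 1383, 1425, 1437 and 1484 CPM against 804, 967 and 1167 CPM. Its sets did not overlap, and it was 1.47-fold lower, with a log2 difference of 0.16 under the habenular scaling. Tcf7l2, a transcription factor of Wnt signalling, was at 1153, 1247, 1269 and 1297 CPM against 1101, 1179 and 1274 CPM, and its sets overlapped. Tcf7l2 is also strongly expressed in thalamus.

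Of 6 GABA-B receptor and KCTD genes, 3 were lower without overlap and 1 was at least 2-fold higher (median -0.40, highest 3.45). Over all genes these shares were 22.9% and 15.7%. Under the habenular scaling none of the 6 was lower and 2 were higher without overlap (median 0.31, beside 0.75 over all genes). The mean log2 CPM of this list was 7.04 to 7.17 in replicates 1 and 5 and 7.21 to 7.35 in replicates 2 to 4. Gabbr1, an obligate subunit of the metabotropic GABA-B receptor, was at 4857, 5090.3, 4958 and 5073 CPM against 2359, 2909 and 4467 CPM, 1.52-fold lower without overlap, though 0.07 on the log2 scale under the habenular scaling. Gabbr2, the other obligate subunit, was at 1074 to 1271 CPM and 1008 to 1683 CPM, with overlap. Of 14 measured ionotropic GABA-A receptor subunits, 11 were at least 2-fold higher in replicates 2 to 4 without overlap, beside 15.7% of all genes. None was lower, and the median log2 difference was 2.55 beside 0.03 over all genes.

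For 3 GABA-A subunits the sets overlapped. Gabra2, an alpha subunit named after its values were seen, was among them, at 21.95, 19.6, 20.2 and 19.2 CPM against 18.4, 21.9 and 30.6 CPM, a log2 difference of 0.18. Gabrb2, a beta subunit, was at 21.2, 17.2, 19.2 and 19.4 CPM against 76.4, 217 and 289.8 CPM, 10.5-fold higher. Per kilobase of exon, Gabrb2 supplied 3.52% to 3.92% of GABA-A transcripts in replicates 1 and 5 and 10.8% to 22.5% in replicates 2 to 4, so the make-up of the family differed between the sets. Beside these values, summed thalamic markers were at 1110.1 to 1228 CPM in replicates 1 and 5 and 1813 to 2876 CPM in replicates 2 to 4, and summed lateral habenula markers at 73.1 to 84.2 CPM and 159.6 to 457 CPM. The part of those neurons in the receptor levels was not tested.

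**Figure D2:**
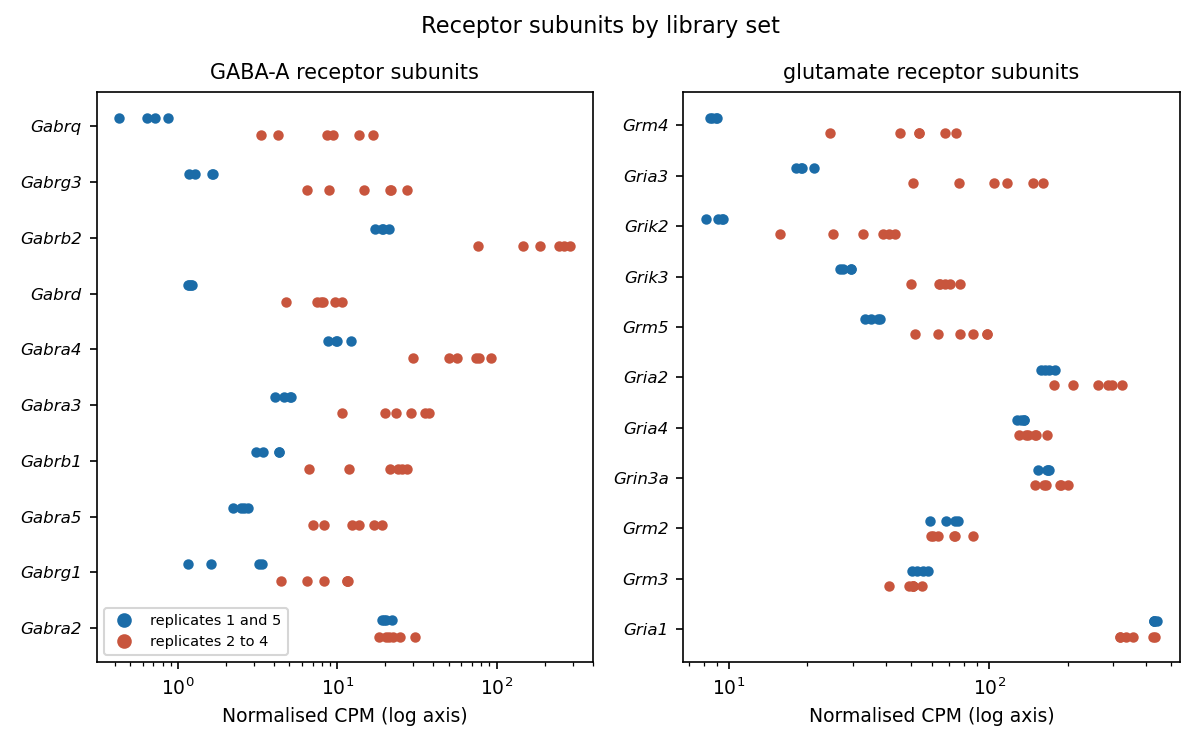
Normalised CPM (log axis) of selected GABA-A subunits (left) and glutamate receptor subunits (right), 1 point per library, blue for replicates 1 and 5 and red for replicates 2 to 4. Gabra2 and Gria1 overlap between the sets, and all 6 red Gabrb2 points lie above the blue ones.

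Glutamate receptor genes likewise held members that were much higher and members that hardly differed. Of 24 subunits, 13 were at least 2-fold higher, beside 15.7% of all genes. Without overlap, 15 were higher and none was lower, beside 23.8% and 22.9% of all genes. The median log2 difference was 1.13, beside 0.03 over all genes. Gria1, an AMPA receptor subunit, was at 442, 429, 431 and 428 CPM against 317, 347 and 435 CPM, with overlap and a log2 difference of -0.25 that was 0.46 under the habenular scaling. Gria2, another AMPA receptor subunit, was at 179, 159, 169 and 164 CPM against 178, 273 and 324 CPM, with overlap and a log2 difference of 0.63. Per kilobase, Gria1 supplied 36.2% to 39.5% of glutamate receptor transcripts in replicates 1 and 5 and 18.8% to 32.1% in replicates 2 to 4. Of 8 genes of glutamate release and supply, 1 was higher and 1 lower without overlap (median 0.27), beside 23.8% and 22.9% of all genes. Under the habenular scaling 7 of the 8 were higher without overlap and 4 at least 2-fold (median 1.03). Of all 17649 genes, 5381 were at least 2-fold higher under it (median 0.75).

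Channel and vesicle release genes differed by less than GABA-A subunits. Of 14 pacemaker and calcium channel genes 6 were at least 2-fold higher (median 0.54), beside 15.7% of all genes. Of 38 potassium channel genes 16 were (median 0.70), and of 26 vesicle release genes 6 were (median 0.31). Under the habenular scaling these counts were 11 of 14 (median 1.30), 25 of 38 (median 1.45) and 15 of 26 (median 1.06). Over all genes that scaling gave 5381 of 17649 (median 0.75). Cacna1e, the R-type calcium channel, was at 966, 917, 962 and 946 CPM against 771, 913 and 1018 CPM. Snap25, a core protein of vesicle fusion, was at 7400.0, 8008, 7198 and 7943 CPM against 7624, 8394 and 9662 CPM. Both overlapped between the sets. Cacna1c, the L-type channel, was at 94.9 to 97.3 CPM against 147 to 243 CPM, 2.07-fold higher. Of 31 general neuronal cytoskeleton and cytosol genes, 14 were at least 2-fold higher and 1 lower, beside 15.7% and 4.11% of all genes. Map1b, a microtubule-associated protein, was at 6849, 6768, 6544 and 6520.3 CPM against 9223, 14556 and 17208 CPM, 2.02-fold higher.

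**Figure D3:**
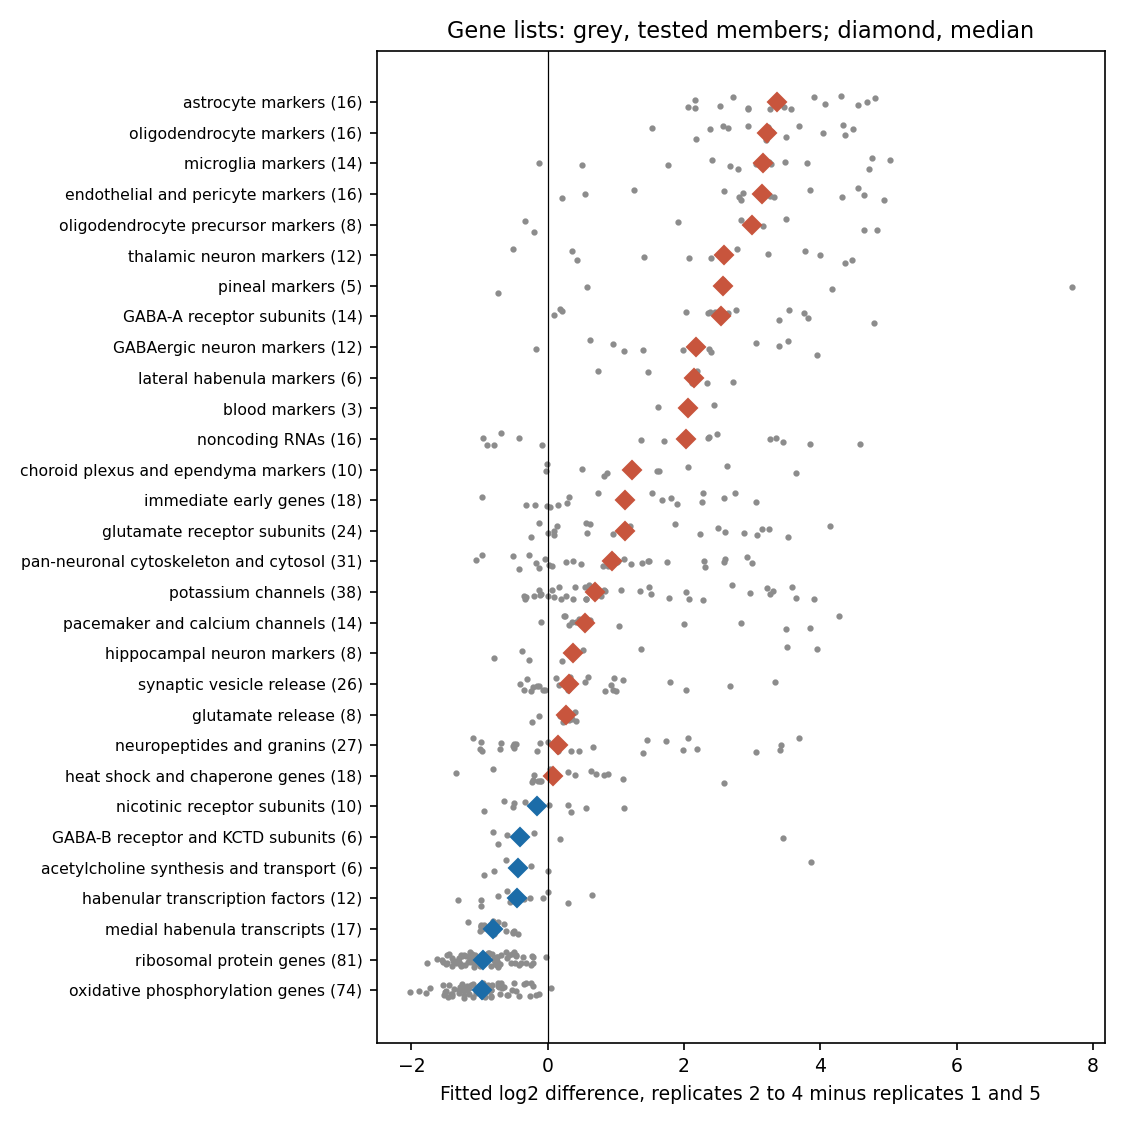
Fitted log2 difference of every tested member (grey) and the list median (diamond) for each gene list, with the number of members tested. Medians run from -0.97 (oxidative phosphorylation) to 3.37 (astrocyte markers), with medial habenula transcripts at -0.80.

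The glial and vascular transcripts, on which the sets were formed, gave the measure of the gap. All 16 astrocyte and all 16 oligodendrocyte markers were at least 2-fold higher in replicates 2 to 4, with median log2 differences of 3.37 and 3.22. Microglia (11 of 14, median 3.15) and vascular markers (13 of 16, median 3.15) were alike in size but far lower in level. The summed level of astrocyte markers was 225 to 235 CPM in replicates 1 and 5 against 662 to 2402 CPM in replicates 2 to 4, and that of microglia markers was 7.38 to 9.48 CPM against 19.03 to 47.1 CPM. Csf1r, the microglial growth factor receptor, was at 0.321, 0.223, 0.327 and 0.36 CPM against 2.54, 8.77 and 12.8 CPM. Pecam1, an adhesion protein of endothelial cells, was at 3.65 to 4.59 CPM against 3.57 to 6.27 CPM, with overlap. Exons of Csf1r overlap Hmgxb3 on the opposite strand.

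Most markers of thalamic and lateral habenular neurons were also higher in replicates 2 to 4, and some of those of GABA-releasing neurons. Of 12 thalamic markers, 9 were at least 2-fold higher (median 2.59), beside 15.7% of all genes. Synpo2, an actin-binding protein, was at 7.61, 8.29, 8.22 and 7.94 CPM against 81.7, 181 and 247 CPM, 22.1-fold higher. Of 6 lateral habenula markers, 5 were at least 2-fold higher (median 2.15): Pcdh10, a protocadherin, was at 13.8, 13.9, 17.3 and 16.9 CPM against 42.3, 109 and 149 CPM, and Gap43, a growth-cone protein, at 23.5, 23.7, 28.5 and 27.7 CPM against 39.5, 71.9 and 104 CPM. Of 12 markers of GABA-releasing neurons, 5 were at least 2-fold higher and 7 overlapped between the sets. Among the 5 was Gad1, a GABA-synthesising enzyme, at 7.14, 7.27, 7.11 and 6.65 CPM against 17.7, 36.3 and 59.4 CPM. Zic4, on the thalamic list, was 1.43-fold lower without overlap, with a log2 difference of 0.17 under the habenular scaling. Hippocampal markers (3 of 8 at least 2-fold higher, 2 lower without overlap, median 0.37) were mixed, beside 15.7% and 22.9% of all genes. Under that scaling none of the hippocampal markers was lower without overlap and 5 were higher (median 1.08, beside 0.75 over all genes).

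Without reference to any list, the 10 genes with the greatest gain at 10 CPM or more included Frem3, Nexn, Acsbg1, Slc1a3, Slc6a11, Vcan, Kcnq1ot1, Sox10 and Synpo2. Frem3, an extracellular matrix protein, was at 0.574, 0.39, 0.505 and 0.48 CPM against 6.08, 18.5 and 31.4 CPM, 35.5-fold higher. That fold rests on values near the floor in replicates 1 and 5. Slc6a11 was at 4.79, 3.38, 2.92 and 2.99 CPM against 25.7, 98.1 and 133 CPM, 25.7-fold higher. Slc1a3 and Slc6a11 are transporters of glutamate and GABA in astrocytes, and Sox10 is a factor of the oligodendrocyte lineage. Exons of Kcnq1ot1 overlap Kcnq1 on the opposite strand.

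Most noncoding RNAs were higher in the same libraries. Of 16 measured, 10 were at least 2-fold higher in replicates 2 to 4 and 3 were lower without overlap (median 2.03). Over all genes these shares were 15.7% and 22.9%. Malat1, a nuclear RNA, was at 162, 108, 129 and 105 CPM against 503, 1358 and 1746 CPM, 10.2-fold higher. Meg3, an imprinted noncoding RNA, was at 59.9 to 74.6 CPM against 286 to 975 CPM, 10.98-fold higher. Kcnq1ot1, an imprinted antisense RNA, was at 1.603, 1.45, 2.06 and 1.76 CPM against 16.4, 43.9 and 54.8 CPM. Rn45s, the ribosomal RNA precursor, was at 71664 to 103746 CPM in replicates 1 and 5 and 8646 to 104283 CPM in replicates 2 to 4, with overlap. The low end was left replicate 4, which also had the fewest non-unique alignments. The noncoding RNAs summed to 11966 CPM there and to 65480 to 107895 CPM in the other libraries of replicates 2 to 4. Reads of Malat1, Meg3 and Kcnq1ot1 are uncertain where other genes share their exons.

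Ribosomal protein and oxidative phosphorylation genes, which build ribosomes and the respiratory chain, had the lowest medians of all the lists. Of these, 63 of 81 ribosomal protein genes and 64 of 74 oxidative phosphorylation genes were lower in all 6 libraries. At least 2-fold lower were 35 of each. Over all genes these shares were 22.9% and 4.11%. The median log2 differences of the 2 lists were -0.96 and -0.97, and were -0.28 each under the habenular scaling. That scaling left 21 ribosomal protein and 28 oxidative phosphorylation genes lower without overlap, of which 1 and 4 were at least 2-fold lower. Ribosomal protein genes have many processed pseudogene copies, so reads that align to several of them are uncounted. Uqcrq, a subunit of respiratory complex III, was at 266, 328, 314 and 334 CPM against 33.7, 81.1 and 135 CPM, 3.704-fold lower. Abundant members of the same groups differed by less: Rpl4, a protein of the large ribosomal subunit, was at 463 to 492 CPM against 334 to 446 CPM and Atp5b, the catalytic subunit of ATP synthase, at 3328 to 3759 CPM against 2648 to 3280.5 CPM. Both were lower without overlap, and both turned positive under the habenular scaling, at 0.39 and 0.51 on the log2 scale.

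Without reference to any list, the genes lower by the most among those averaging 10 CPM or more were Grcc10, Uqcrq, Rabac1, Atp5e, Rpl15, Nop10, 2700094K13Rik, 2010107E04Rik, Uqcr11 and Bahcc1. Grcc10 was at 29.2, 34.9, 35.6 and 34.7 CPM against 2.72, 9.12 and 14.3 CPM, 3.76-fold lower. Atp5e, the small epsilon subunit of ATP synthase, was at 279.7, 303, 307 and 311 CPM against 42.6, 80.8 and 131 CPM, 3.44-fold lower. Rpl15, a ribosomal protein, was at 97.2, 187, 80.6 and 159 CPM against 28.04, 37.9 and 50.3 CPM, and on both sides replicate 5 lay above replicate 1. Bahcc1, a chromatin protein with 11118 exonic bases, the longest of the 8 of these genes with a matched length, was at 73.2, 94.1, 87.1 and 93.2 CPM against 21.9, 26.8 and 28.1 CPM.

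The difference between the sets ran with transcript length across the whole transcriptome. Among 12279 genes averaging 1 CPM or more and with an annotated exonic length, the median log2 difference was -0.79 below 1 kb, -0.61 at 1 to 2 kb, -0.08 at 4 to 6 kb and 0.53 above 12 kb. Of genes under 1 kb, 36.4% were at least 2-fold lower in replicates 2 to 4 without overlap and 3.83% higher, and above 12 kb the figures were 0.245% and 28.6%. Bins of GC content were flat, with medians of -0.10 to -0.05. Against genes of their own length bin, the medial habenula list kept a median of -0.61, with 16 of 17 members below their bin, while the ribosomal protein and oxidative phosphorylation lists were at -0.49 and -0.48. Astrocyte and GABA-A genes were at 3.47 and 2.67 above their bins. Glial markers were higher in the same libraries, and their part in the relation with length was not tested.

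**Figure D4:**
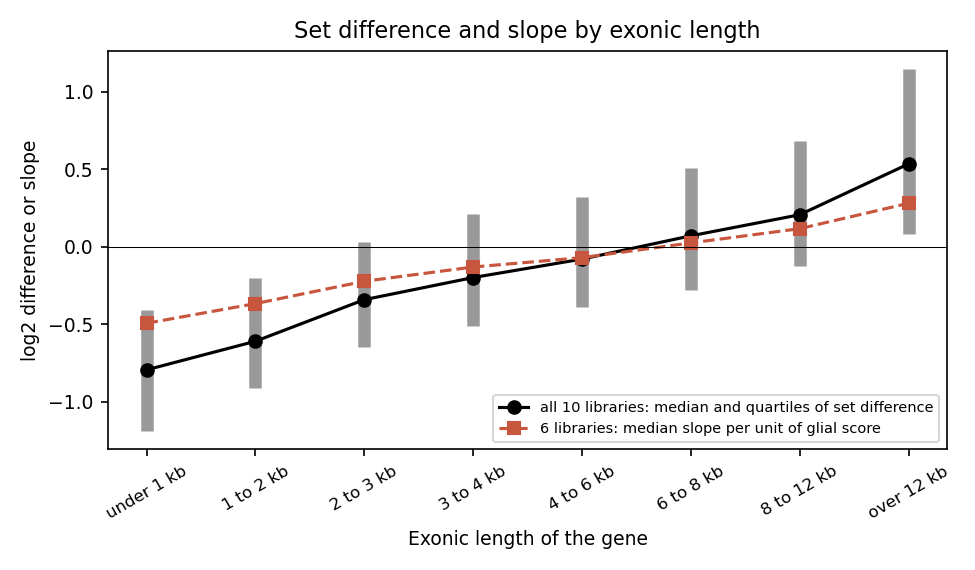
Median log2 difference between the sets (black, with quartiles as grey bars) by exonic length, and the median slope on the glial score within replicates 2 to 4 (red squares). Both rise from under 1 kb (-0.79 and -0.49) to over 12 kb (0.53 and 0.28).

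Some abundant transcripts differed little between the sets relative to the rest of each library. The 10 most abundant genes with a log2 difference under 0.1 in size were Atp1b1, Tcf7l2, Celf4, Chst2, Mapk10, Cacna1e, Gnal, Trp53i11, Rufy3 and Taok1. Atp1b1, a sodium pump subunit, was at 1468, 1473, 1588 and 1615 CPM against 1325, 1425 and 1545 CPM. Celf4, an RNA-binding protein of neurons, was at 1084, 1182, 1118 and 1179 CPM against 1014, 1109.7 and 1273 CPM. Gnal, an olfactory-type G protein alpha subunit, was at 909, 865, 897 and 889 CPM against 736, 902 and 1031 CPM. The sets overlapped for all 3. Under the habenular scaling they were higher in replicates 2 to 4, with log2 differences of 0.63 for Atp1b1, 0.72 for Celf4 and 0.69 for Gnal.

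Immediate early genes, which neurons and glia induce within minutes of stimulation, were in part higher in replicates 2 to 4. Of 18 measured, 9 were at least 2-fold higher and 1 was lower without overlap (median 1.14), beside 15.7% and 22.9% of all genes. Egr1, a zinc finger factor, was at 40.4, 49.4, 47.6 and 51.5 CPM against 135, 144 and 181 CPM, 3.19-fold higher. Dusp1, a phosphatase of MAP kinases, was at 5.42, 6.25, 6.93 and 6.77 CPM against 23.02, 47.1 and 53.7 CPM, 6.75-fold higher. Of the heat shock and chaperone genes, 1 of 18 was at least 2-fold higher and 1 lower, with a median of 0.08. Over all genes these shares were 15.7% and 4.11%. Under the habenular scaling 8 of these 18 were at least 2-fold higher and none was at least 2-fold lower (median 0.84). Of the 18 immediate early genes 11 were at least 2-fold higher under it (median 1.92), and of all 17649 genes 5381 were (median 0.75).

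The gap between the sets was tested for a difference between sides. With edgeR's quasi-likelihood test of the interaction of side and set, 0 of 17649 genes (0%) passed an adjusted p of 0.05, 664 had an unadjusted p under 0.05, and the smallest adjusted p was 0.257. DESeq2 called 5 genes. Of 8964 genes averaging 10 CPM or more, 8736 had an interaction under 0.5 in log2 size. With the replicate number as a block no gene passed either, with 1051 at an unadjusted p under 0.05.

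Among the 6 libraries of replicates 2 to 4, the glial score, centred on its mean, ran from -0.97 in right replicate 2 to 0.63 in right replicate 3. With side as a covariate, 2208 genes (13.2%) rose and 1405 (8.39%) fell with the score at an adjusted p under 0.05 (edgeR quasi-likelihood test, score genes left out). Of 17 medial habenula transcripts, 15 fell and none rose, with a median slope of -0.57 log2 units per unit of score. Tac2 fell with a slope of -0.81 ± 0.17 (SE, adjusted p = 0.00362), Slc18a3 with -0.82 ± 0.17 (adjusted p = 0.00401), Gpr151 with -0.60 ± 0.13 (adjusted p = 0.0033) and Chat with -0.35 ± 0.11 (adjusted p = 0.0371), by edgeR over the 6 libraries. With the replicate number as a block, which leaves 1 residual degree of freedom, 0 genes rose and 0 fell, with 934 genes at an unadjusted p under 0.05 and a smallest adjusted p of 0.233. Without right replicate 2, 704 genes rose and 780 fell, and 6 of the 17 habenular transcripts fell. Without right replicate 3, 397 genes fell, 7 of them habenular, and without left replicate 4, 618 fell.

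**Figure D5:**
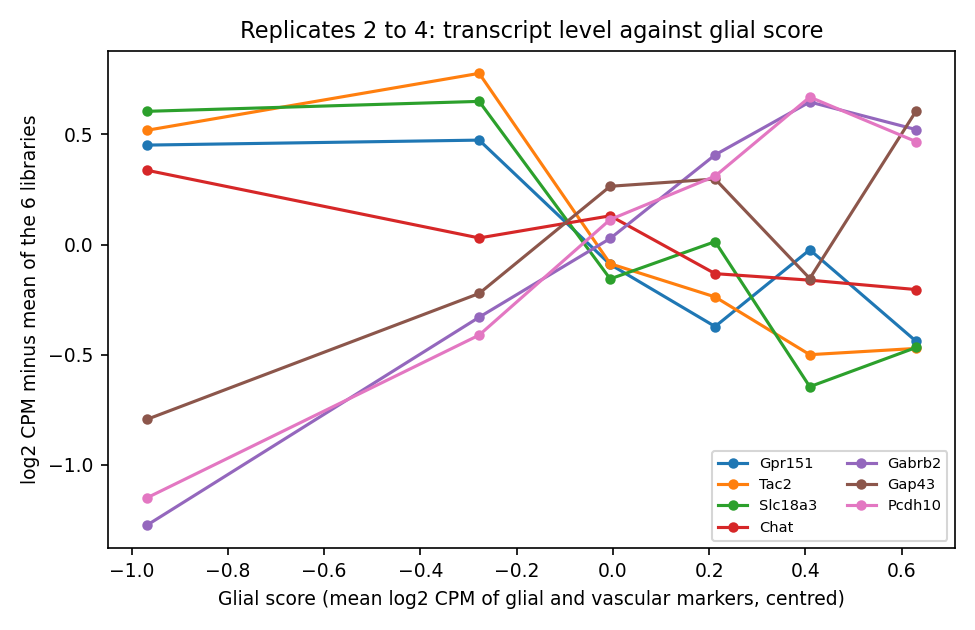
Log2 CPM of 7 transcripts in the 6 libraries of replicates 2 to 4, each centred on its own mean, against the centred glial score. Gpr151, Tac2, Slc18a3 and Chat decline from right replicate 2 (score -0.97) to right replicate 3 (0.63), while Gabrb2, Pcdh10 and Gap43 increase.

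The families that were higher across the sets rose along this gradient as well. Over all genes, 13.2% rose and 8.39% fell. Of 14 GABA-A subunits 10 rose and none fell (median slope 0.98), of 24 glutamate receptor subunits 16 rose and none fell (0.69), and all 6 lateral habenula markers rose (0.96). Gabrb2 rose with a slope of 1.23 ± 0.14 (edgeR adjusted p = 2.89e-05) and Pcdh10 with 1.14 ± 0.13 (adjusted p = 4.03e-05). Of 12 thalamic markers 7 rose and 1 fell, of 31 general neuronal genes 18 rose and none fell, and of 18 immediate early genes 6 rose and 2 fell. Dusp1 rose (0.71 ± 0.13, edgeR adjusted p = 0.00136), and the slope of Egr1 was 0.19 ± 0.12 (adjusted p = 0.255). Of 81 ribosomal protein genes 22 fell and none rose, and of 73 oxidative phosphorylation genes 43 fell and 1 rose. None of these calls remained with the replicate block.

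The most abundant genes that rose were Map1b, Tubb4a, Hsp90ab1, Kif1a and Srrm2, and the most abundant that fell were Gabbr1, Lrrc55, Vamp2, Cplx1 and Scube1. Map1b and Kif1a, a motor of axonal transport, had slopes of 0.58 ± 0.16 (edgeR adjusted p = 0.0196) and 0.70 ± 0.15 (adjusted p = 0.00306). Gabbr1 had -0.60 ± 0.14 (edgeR adjusted p = 0.00685), and Cplx1, a regulator of vesicle fusion, -0.45 ± 0.13 (adjusted p = 0.0196). Of the abundant genes with a log2 difference under 0.1 between the sets, Chst2 and Trp53i11 fell along the gradient, with slopes of -0.45 ± 0.13 (edgeR adjusted p = 0.0249) and -0.63 ± 0.13 (adjusted p = 0.00278). With the replicate number as a block, none of the genes in this paragraph was called.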

How the data were processed

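Each library is 1 file of raw counts of reads per gene, as deposited by the authors. The submitters' processing notes name the aligner STAR 2.0.0e, the counter HTSeq and the mm10 build, and no source used here gives the annotation, strand setting or filters of the counting. Of the rows, 32531 name genes. The other 6 (HTSeq summary lines and a row named unknown) entered neither library sizes nor tests. Reads that fell outside genes made up 13.6% to 18.9% of uniquely aligned reads and ambiguous ones 2.25% to 2.81%, and the unknown row held 0 to 4 reads.

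Counts were normalised by TMM in edgeR 4.0.16 (R 4.3.3, limma 3.58.1) after filterByExpr by side and set (minimum count 10), which kept 17649 genes. Differences between the sets were fitted with side as covariate and counted at 2-fold or more where the normalised CPM of the sets did not overlap. No p-value was computed. A prior count of 2 was used for log2 CPM values, such as the glial score and list means, and not for the overlap. The side by set interaction and the slope on the glial score within replicates 2 to 4 were tested with edgeR's quasi-likelihood test and Benjamini-Hochberg adjustment over all genes tested; the score is the mean log2 CPM of the astrocyte, oligodendrocyte, microglia and vascular lists. The procedures were tested on simulated data. Alternatives were DESeq2 1.42.0, other scalings and filters, summed replicates 1 and 5, a replicate block and each library left out.

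Exonic lengths and positions came from GENCODE M21 on the same assembly, matched by symbol for 86.6% of genes tested. Named genes were the 6 markers, the 3 most abundant members of each list and the 10 most abundant with a log2 difference under 0.1. To these were added the 10 with the largest difference each way among genes averaging 10 CPM or more. The 5 most abundant called in each test and direction were also named. Any other is said to be chosen afterwards. Some genes that this rule names are not reported here. The library sets, members and lists were chosen with earlier results of these data known.

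The replicate numbers were checked for pairing: the deviations of left and right libraries of the same number from their side and set means correlated at 0.63, 0.74, 0.27, 0.26 and 0.63 for replicates 1 to 5, and left and right libraries of replicates 2 to 4 shared a lane. With 2 libraries per side and set, the values of replicates 1 and 5 are equal by construction. Figures were drawn with matplotlib 3.10.9 under Python 3.11.15.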

Additional observations from a re-analysis of the deposited data

Results flagged for a closer look

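Of 144 groups of libraries checked for a single library far from the rest relative to the spread of its set, 5 held one. Chance gives about 1 in 20 groups. Within replicates 1 and 5, left replicate 5 stood apart in the mean log2 CPM of nicotinic receptor subunits (4.59 against 4.75 to 4.77). Left replicate 1 did so in that of the general neuronal genes (7.86 against 7.88), a very small gap. Right replicate 5 did so in that of microglia markers (-2.35 against -2.18 to -2.16). Within replicates 2 to 4, right replicate 4 had the fewest reads in genes (42488448), and left replicate 4 had the fewest non-unique alignments, 31.5 per 100 gene reads against up to 76.5 in the other libraries of the set and 84.1 to 93.1 in replicates 1 and 5.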

How the results depend on the processing

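The count of genes at least 2-fold higher in replicates 2 to 4 was 2770, and 2620 to 3278 when each library was left out in turn; the count higher in replicates 1 and 5 was 726, and 627 to 1021. Summing replicates 1 and 5 of a side gave 2970 and 894. Scaling to the medial habenula transcripts gave 5381 and 54, and a 4-fold limit 1920 and 26. No paired analysis was possible for the difference between the sets because each replicate number lies in only 1 set. The interaction of side and set stayed at 0 genes in edgeR with every library left out (0 to 0 genes), with the replicate block, with summed replicates (190 genes at an unadjusted p under 0.05), with no filter and with median-of-ratios factors. DESeq2 called 5 genes, named for that reason only: 2610037D02Rik, Meis2, Pirt, Qtrtd1 and Tbr1, with 822 at an unadjusted p under 0.05.

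Along the glial score the counts were 2208 rising and 1405 falling; with each library left out they were 704 to 2272 and 397 to 1457, and with the replicate block 0 and 0. DESeq2, median-of-ratios factors, no filter and astrocyte markers alone kept both within 1.5 times; the habenular scaling was not run on the gradient. For 121 named genes under 15 settings, 114 of 1815 values moved by more than the residual SD, all under the habenular scaling. Of the values past 2-fold without overlap, 0 changed sign. Changes of sign among smaller differences were not counted and are given beside only some of the genes. The alternatives for gene lists and GC content were chosen after seeing the data. Depth limits transcripts that are near 0 in replicates 1 and 5, such as those of blood, whose summed level was 0.312 to 0.723 CPM there, and Tph1, a pineal enzyme with 0 reads in 3 of the 4 libraries of replicates 1 and 5.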

Other observations

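Markers of other tissue near the habenula gave further values. Ttr, the transthyretin of choroid plexus, was at 1.04 to 1.69 CPM in replicates 1 and 5 and 0.258 to 2.95 CPM in replicates 2 to 4, with overlap, while Enpp2, an enzyme shared by choroid plexus and oligodendrocytes, was at 7.04 to 8.77 CPM against 29.7 to 146 CPM, 12.5-fold higher. Summed choroid plexus and ependyma markers were at 12.5 to 13.9 CPM against 37.3 to 158 CPM, and Enpp2 is part of that sum. Of the 10 tested, 4 were at least 2-fold higher, beside 15.7% of all genes, and 6 overlapped between the sets. Of 27 neuropeptide and granin genes, 6 were higher and 8 lower without overlap (median log2 difference 0.16), beside 23.8% and 22.9% of all genes. Under the scaling to medial habenula transcripts 16 of the 27 were higher and 2 lower (median 0.89, beside 0.75 over all genes). Among them the processing enzymes Pcsk2 (430.3 to 492 against 457 to 588 CPM) and Cpe (358 to 412 against 315 to 415 CPM) overlapped. Of 8 oligodendrocyte precursor markers, 6 were at least 2-fold higher, beside 15.7% of all genes. However, the most abundant, Sox6 and Lhfpl3, overlapped between the sets. They were at 115 to 125 and 97.04 to 107 CPM in replicates 1 and 5 against 80.9 to 116 and 75.6 to 106 CPM. Under the scaling to medial habenula transcripts all 8 were higher without overlap. Gad2, a GABA-synthesising enzyme, was at 18.9, 16.2, 34.01 and 30.7 CPM in left replicates 1 and 5 and right replicates 1 and 5, higher on the right in that set, and at 107, 276 and 411 CPM (lowest, median and highest) in replicates 2 to 4.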
